A study of Homo sapiens with 24 samples.

Results

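HCC-70 is a human triple-negative breast cancer (TNBC) cell line, grown as adherent cells. The data described here are its 6 mRNA libraries, 3 control and 3 treated with Ocoxin, chosen by the cell line and the control or Ocoxin letter in their labels, out of 24 libraries of 4 cancer cell lines in the series. The study asked which genes are altered in cancer cells by Ocoxin, a nutritional supplement made of botanical extracts, green tea among them, with minerals and other nutrients added. HCC-70 cells received Ocoxin diluted 700-fold for 48 h in medium with 1% serum, a dose that the study chose as the one that lowers viability to the midpoint. The same dilution is written on the control libraries, so the letters C and O in the titles decided the group. Every group holds 1 cell line only, RNA was taken from the cells still attached, and nothing in the labels says that the 3 libraries of a group came from separate cultures, so p-values measure only the spread between these libraries. SW620 (colon cancer, also at 700-fold) and BxPC-3 (pancreatic cancer, at 500-fold), with 3 control and 3 Ocoxin libraries each after 48 h, were used for comparison where a difference between cell lines was tested.

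Several of the systems described below answer to small molecules or metals. Hypoxia-inducible factor (HIF) is a pair of proteins whose alpha subunit is hydroxylated by oxygen- and iron-dependent enzymes and then degraded, and when it is stable it raises genes for glucose uptake, glycolysis, acid export and collagen hydroxylation. Zinc ions activate the transcription factor MTF1, which raises metallothioneins, small cysteine-rich proteins that bind zinc and copper, and zinc exporters. The aryl hydrocarbon receptor (AhR) binds flat aromatic molecules, many of them from plants, and raises the cytochrome P450 genes of the CYP1 family.

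Total counts were 36863490 to 39009959 per HCC-70 library, against 25160757 to 34397801 in SW620 and 31101178 to 34231106 in BxPC-3. A fragment was mostly counted as 2 reads, so these totals overstate the number of molecules. Levels are given as counts-per-million (CPM, scaled with TMM), and differences as log2 fold changes of Ocoxin against control with their standard error (SE). Of 58051 genes, 17352 had enough counts to be tested, and 3644 of them (21%) had an edgeR adjusted p under 0.05 and are called altered, 1675 up (9.65%) and 1969 down (11.3%). With the trend with gene length and GC content removed, 1439 were up and 2345 down, so that the share up went from 46% to 38%. The median log2 fold change of all genes tested was 0.0056 and the median size of the change among altered genes was 0.26, so most changes were small, and 80 genes rose and 96 fell by at least 2-fold. The CPM of both groups did not overlap for 6613 genes (38.1%), among them 3608 of the 3644 altered genes. The 12 largest increases and 12 largest decreases named below were chosen from genes without overlap. With 1 library left out, the number altered went from 2285 (without Ocoxin replicate 1), 2296 (control replicate 2) or 2333 (Ocoxin replicate 2) to 3864 (Ocoxin replicate 3). The first principal component (40% of the variance of the 500 most variable genes) separated Ocoxin from control and the second (19.8%) set replicate 3 of both groups apart from the other 4 libraries. The markers went with the label: the summed level of 8 basal breast markers was 3040 to 3386 CPM in controls and 2869 to 3198 CPM with Ocoxin, PGR, the progesterone receptor, had 0 counts in every library, ESR1, the estrogen receptor, had 7.56, 5.51 and 7.49 CPM in the controls and 7.02, 8.18 and 7.09 CPM with Ocoxin, and 4 immune and 4 colon markers had under 1 CPM each. ERBB2, the HER2 receptor, had 243, 259.8 and 241 CPM in the controls and 279, 286 and 252 CPM with Ocoxin. Of the 6 epithelial markers, 5 fell (4158 to 4290 CPM summed in controls, 3307 to 3542 CPM with Ocoxin), and of the 8 basal markers 5 fell and 1 rose.

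Genes that hypoxia induces were lower with Ocoxin. Of 29 tested members of this list, 21 fell, none rose and 8 did not pass the test, with a median log2 fold change of -0.49, against 11.3% of all genes tested that fell and a median of 0.0056 over all of them. CA9, a carbonic anhydrase at the cell surface and one of the most used markers of HIF activity, lies at chr9:35673856-35681159 (hg38) and had 17, 18.9 and 22.1 CPM in the controls and 4.01, 3.04 and 3.13 CPM with Ocoxin. NDRG1, a gene induced by hypoxia and metal chelation, had 262, 266 and 294 CPM in the controls and 61.8, 58 and 66 CPM with Ocoxin. BNIP3, a mitochondrial receptor for mitophagy, had 7.76, 6.3 and 12.1 CPM in the controls and 2.15, 1.7 and 2.1 CPM with Ocoxin. In all 3 genes every control library lay well above every Ocoxin library, and the log2 fold changes were -2.51 ± 0.13, -2.15 ± 0.057 and -2.13 ± 0.25 (± SE, n = 3 against 3; edgeR adjusted p = 3.77e-07, 1.25e-09 and 0.000446). In bulk libraries, fewer cells of a kind and less RNA per cell cannot be told apart.

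The other falling members covered the known roles of the response. EGLN3, the prolyl hydroxylase that marks HIF alpha for degradation and is itself induced by HIF, had 57.8, 59.3 and 60.7 CPM in the controls and 23.1, 21.5 and 19.7 CPM with Ocoxin (log2 fold change -1.47, SE 0.062, edgeR adjusted p = 4.53e-08), and its relative EGLN1 fell by less (-0.20, adjusted p = 0.00437). SLC16A3, the lactate exporter, had 31.8, 32.3 and 34.6 CPM in the controls and 14.9, 14.8 and 15.7 CPM with Ocoxin, and SLC2A1, the glucose transporter GLUT1, had 188, 190.1 and 197 CPM in the controls and 125, 120.1 and 118 CPM with Ocoxin. The groups of each of these genes were separated, with log2 fold changes of -1.12 and -0.67 (adjusted p = 5.36e-07 and 5.63e-07). PDK1, the kinase that closes the entry of pyruvate into mitochondria, fell from 36.8 ± 4.3 to 19.3 ± 0.114 CPM (mean ± SD), and P4HA1, a collagen prolyl hydroxylase, from 81.7 ± 10.7 to 38.1 ± 3.18 CPM. The secreted peptides and lipase inhibitor of the list were at low levels: ADM, which encodes adrenomedullin, had 4.57, 4.41 and 5.02 CPM in the controls and 1.34, 1.61 and 1.76 CPM with Ocoxin, and ANGPTL4 had 3.32, 3.2 and 3.38 CPM in the controls and 1.26, 0.969 and 0.44 CPM with Ocoxin. Smaller decreases were measured for KDM3A (-0.52), BNIP3L (-0.55), TMEM45A (-0.64), STC1 (-0.49), P4HA2 (-0.39), ERO1A (-0.37), PLOD2 (-0.35), LOX (-0.31) and PFKFB3 (-0.25), and ANKRD37 fell by more at about 1 CPM (-1.38).

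Not every gene of the list followed. VEGFA, the vascular growth factor, had 273, 268 and 269 CPM in the controls and 260.5, 259 and 231 CPM with Ocoxin (log2 fold change -0.11, adjusted p = 0.107). PFKFB4, INSIG2, FAM162A, MXI1 and CA12 had log2 fold changes between -0.20 and 0.07, none of which passed. The transcripts of the alpha subunits did not pass either: HIF1A had 322, 301 and 318 CPM in the controls and 336, 326 and 336 CPM with Ocoxin (0.09, adjusted p = 0.124) and EPAS1, which encodes HIF-2 alpha, had 363, 346 and 348 CPM in the controls and 362, 364 and 384 CPM with Ocoxin (0.07, adjusted p = 0.212). HIF alpha is controlled mainly through the stability of the protein, which mRNA counts do not show. With 1 library left out at a time, 19 to 20 members fell and none rose.

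The stretch before the start of these genes was searched for ACGTG and GCGTG, the forms of the core of the HIF binding site, on both strands, in the 250 bases upstream of each start taken from RefSeq (GRCh38.p14). A gene with several starts was counted if at least 1 of its windows held a match. ACGTG was found for 12 of the 18 falling members of the hypoxia list that have a window (66.7%) and for 3 of the 7 that did not pass (42.9%), against 3273 of 11607 tested genes (28.2%) and 5935 of all 27303 genes with a window (21.7%). Of the 14 falling glycolytic enzymes described below, 9 had it (64.3%). Among all genes that rose, 28.9% had ACGTG, and among all that fell, 29.1%. GCGTG was found for 8 of the 18 falling hypoxia genes (44.4%), all 7 that did not pass (100%) and 8 of the 14 falling glycolytic enzymes (57.1%), against 51.8% of tested genes and 36.2% of all genes with a window. NDRG1 is among the altered hypoxia genes that have no window in the table used. A match describes the letters and does not show binding. The hypoxia list was made of genes known to be induced by hypoxia, so its share against all genes does not bear on the response to Ocoxin. Within the list, 18 and 7 genes are too few to compare, and the difference was not tested. Shown are the windows of the gene with the largest fall among the hypoxia genes, of a mitophagy receptor and of 2 glycolytic enzymes, 5′ to 3′ on the strand of the gene, with ACGTG and its complement CACGT in capitals, so that the palindrome CACGTG is 2 overlapping matches.
CA9, chr9:35673678-35673927, plus strand: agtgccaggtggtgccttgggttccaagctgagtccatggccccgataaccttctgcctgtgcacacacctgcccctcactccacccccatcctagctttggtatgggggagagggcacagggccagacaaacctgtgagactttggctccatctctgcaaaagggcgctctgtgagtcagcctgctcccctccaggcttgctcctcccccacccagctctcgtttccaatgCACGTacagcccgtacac
BNIP3, chr10:131981924-131982173, minus strand: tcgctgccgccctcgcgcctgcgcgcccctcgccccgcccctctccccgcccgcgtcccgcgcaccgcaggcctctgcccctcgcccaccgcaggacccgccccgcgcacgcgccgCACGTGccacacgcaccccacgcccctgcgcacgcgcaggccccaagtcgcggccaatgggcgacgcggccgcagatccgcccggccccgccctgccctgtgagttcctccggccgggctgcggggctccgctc
PGK1, chrX:78103998-78104247, plus strand: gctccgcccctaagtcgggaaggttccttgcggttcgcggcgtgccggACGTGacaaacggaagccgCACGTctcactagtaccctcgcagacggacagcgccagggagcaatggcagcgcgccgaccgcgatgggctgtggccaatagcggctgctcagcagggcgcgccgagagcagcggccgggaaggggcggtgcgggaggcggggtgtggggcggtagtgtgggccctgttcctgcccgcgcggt
LDHA, first of 2 starts, chr11:18394313-18394562, plus strand: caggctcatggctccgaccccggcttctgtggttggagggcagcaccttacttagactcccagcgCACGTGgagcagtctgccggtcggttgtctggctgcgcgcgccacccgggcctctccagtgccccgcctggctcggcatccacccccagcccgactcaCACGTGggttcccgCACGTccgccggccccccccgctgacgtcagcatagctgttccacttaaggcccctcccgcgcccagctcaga
CA9 holds 1 match, 18 bases before the start, BNIP3 and PGK1 hold 2 matches each and LDHA holds 5, while the window of its second start holds none.

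Most enzymes of glycolysis, the path from glucose to lactate, fell. Of 17 enzymes tested, 14 fell and none rose, with a median log2 fold change of -0.32. LDHA, which turns pyruvate into lactate, had 463, 446 and 452 CPM in the controls and 266, 259 and 239.6 CPM with Ocoxin (-0.83, SE 0.042, edgeR adjusted p = 1.86e-07). PGK1, phosphoglycerate kinase, had 666, 672 and 726 CPM in the controls and 442, 454 and 463 CPM with Ocoxin (-0.60, SE 0.039, edgeR adjusted p = 1.43e-06). The lowest control of both genes lay above the highest Ocoxin library. ENO2 fell from 14.7 ± 0.875 to 6.98 ± 1.02 CPM (mean ± SD, log2 fold change -1.08), PGAM1 from 55.5 ± 2.15 to 40.3 ± 1.09 CPM (-0.46) and PFKP from 162 ± 28.5 to 103 ± 13.2 CPM (-0.65, adjusted p = 0.0465). Other enzymes changed less: GAPDH had 1094, 1107 and 1100 CPM in the controls and 899.8, 895 and 855 CPM with Ocoxin (-0.32, adjusted p = 3.77e-05), and log2 fold changes were -0.39 for ALDOA, -0.39 for TPI1, -0.40 for PKM and -0.18 for ENO1. HK1, HK2, PFKL and GPI fell by 0.22, 0.22, 0.25 and 0.29 on the log2 scale. GAPDH is a common reference gene, and its control and Ocoxin CPM did not overlap in these libraries. LDHB, PFKM and ALDOC were the exceptions (-0.00, -0.00 and 0.17, adjusted p of at least 0.732). Of 18 enzymes of the tricarboxylic acid (TCA) cycle, which burns pyruvate in mitochondria, 4 fell by at most 0.19 on the log2 scale (PDHA1, IDH2, MDH1 and MDH2), and OGDH, a subunit of the oxoglutarate dehydrogenase complex, rose (191, 189 and 178 CPM in the controls and 261, 258 and 248 CPM with Ocoxin, log2 fold change 0.46). The share altered among TCA enzymes was 27.8%, near the 21% of all genes tested.

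**Figure D1:**
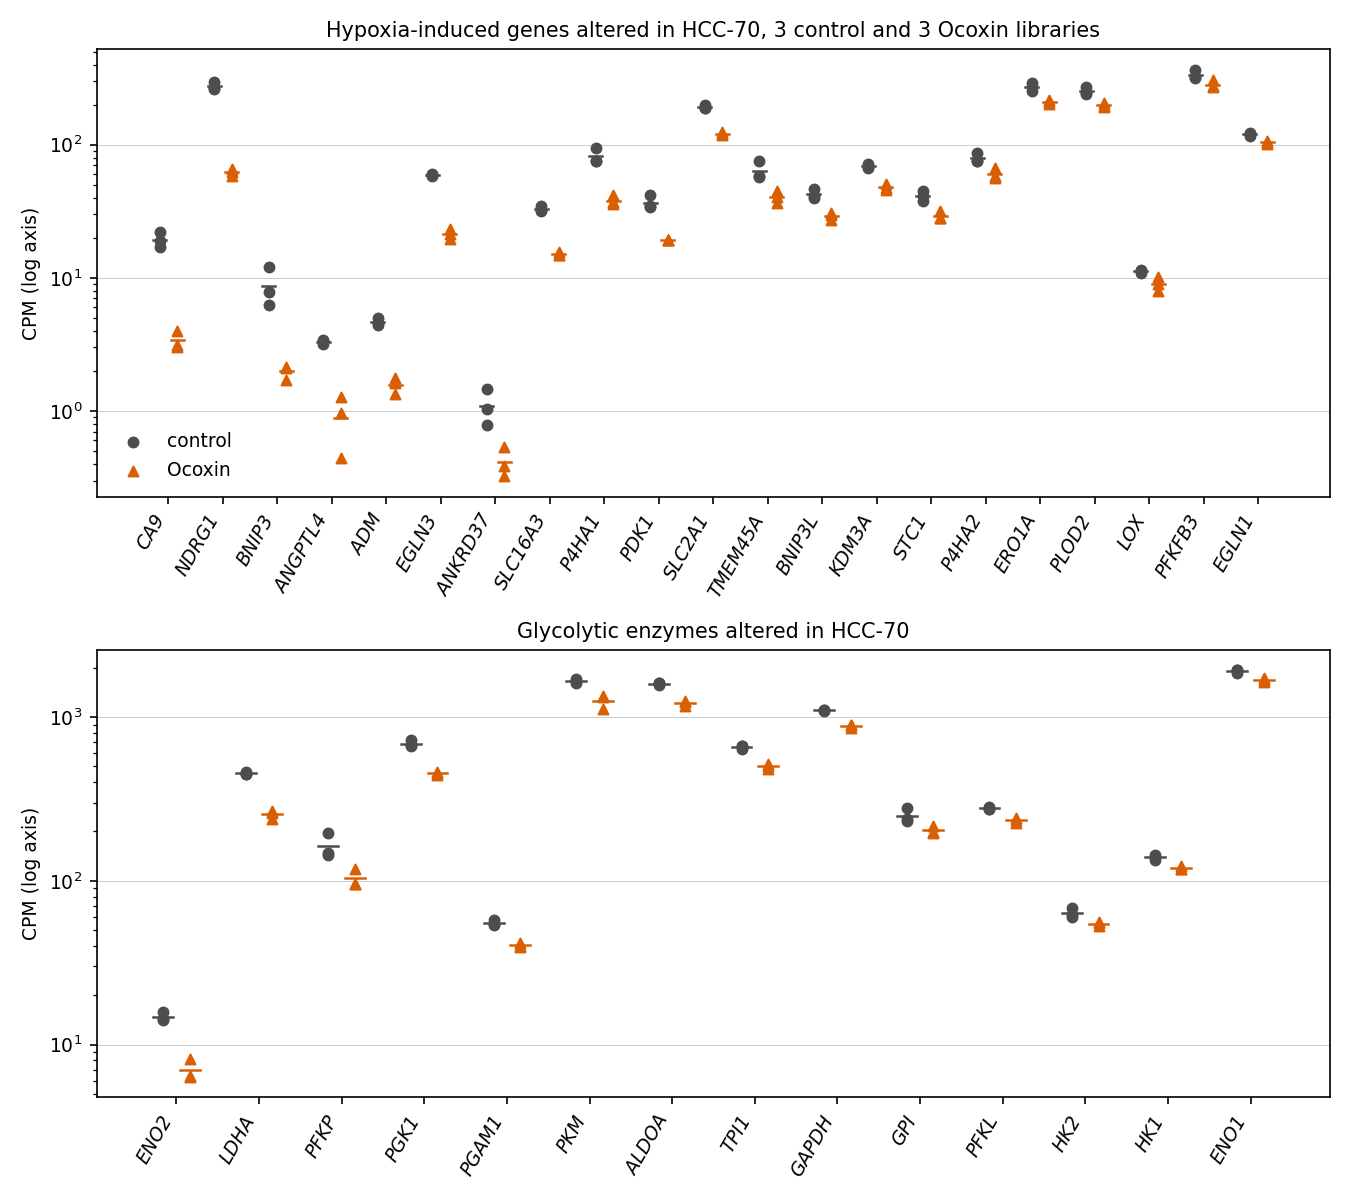
CPM (log axis) of the 21 hypoxia-induced genes (top) and 14 glycolytic enzymes (bottom) altered in HCC-70. Grey circles are the 3 control libraries, orange triangles the 3 Ocoxin libraries and lines the means; in each of these genes every Ocoxin library lies below every control library, with the widest gap for CA9 and NDRG1.

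Both lists were compared in the other lines, whose libraries are separate from those of HCC-70. In SW620, which received the same dilution and where 2.55% of genes tested were altered (1.47% up, 1.09% down), none of the hypoxia genes tested there rose, CA9 fell (-0.29), and the median was 0.02, and the response of 18 of them differed between both lines in a test of the difference (edgeR interaction, adjusted over all genes, where 10.5% of genes tested differed). In BxPC-3, at the less diluted dose and with 8.33% of genes altered (4.72% up, 3.62% down), 10 fell, 3 rose and the median was -0.14, and 11 of the 29 differed from HCC-70 (4.93% of all genes tested). NDRG1 changed by -2.15 in HCC-70, 0.20 in SW620 and -0.35 in BxPC-3 (difference adjusted p = 7.17e-11 and 3.39e-10). EGLN3 fell in HCC-70 and BxPC-3 (-1.47 and -1.14, difference adjusted p = 0.163) and had -0.15 in SW620 (difference adjusted p = 3.58e-08). STC1 fell in HCC-70 (-0.49) and rose in BxPC-3 (0.68, difference adjusted p = 1.08e-05). VEGFA, which did not pass in HCC-70, rose in BxPC-3 (0.39, difference adjusted p = 0.00021). Of the glycolytic enzymes, 2 fell in SW620 and 3 in BxPC-3, and 11 and 8 differed from HCC-70, among them LDHA (-0.83 in HCC-70, -0.08 in SW620, -0.37 in BxPC-3).

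**Figure D2:**
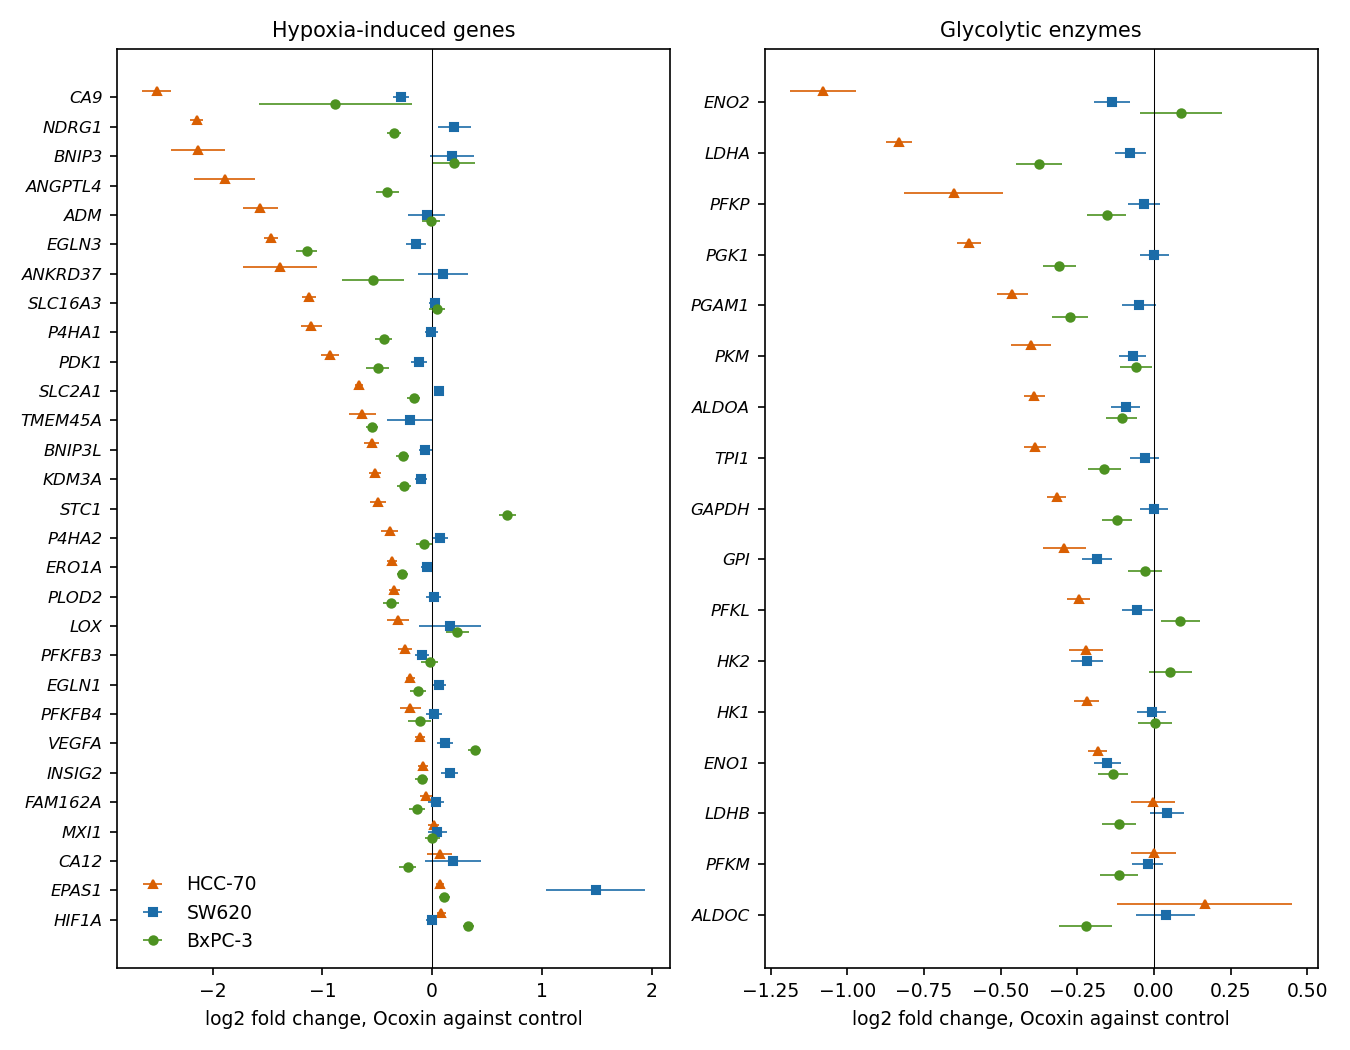
Log2 fold change of Ocoxin against control (± SE, 3 against 3 libraries per line) of each tested hypoxia-induced gene and glycolytic enzyme in HCC-70 (orange triangles), SW620 (blue squares) and BxPC-3 (green circles). CA9, NDRG1 and BNIP3 are below -2 in HCC-70 and above -1 in the other lines; a missing symbol means that the gene was not tested in that line.

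The 2 largest decreases among protein-coding genes with a mean of at least 1 CPM lay outside these pathways, and CA9 came next. TCF19, a transcription factor gene of the G1 to S phase transition at chr6:31158542-31167159, had 7.79, 7.09 and 6.89 CPM in the controls and 0.538, 0.834 and 0.362 CPM with Ocoxin (-3.65, SE 0.22, edgeR adjusted p = 5.63e-07). The groups were far apart, but TCF19 sits in the major histocompatibility region, where neighbours varied within groups: CCHCR1, next to it, had 2.44, 6.25 and 5.63 CPM in the controls and 11.3, 4.47 and 5.9 CPM with Ocoxin, and TAPBP, in the same region, had 31.1, 29.9 and 15.7 CPM in the controls and 19.3, 7.45 and 5.95 CPM with Ocoxin. How reads of this region were shared with its alternative haplotype sequences is not given in the sources used here, and its part in the result was not tested. CASP14, the caspase of the cornifying epidermis, at chr19:15049384-15058293, had 219, 199 and 277 CPM in the controls and 22.8, 21.4 and 22.9 CPM with Ocoxin (-3.37, SE 0.14, edgeR adjusted p = 7.02e-05). Its lowest control lay far above its highest Ocoxin library, and it had too few counts to be tested in SW620 and BxPC-3.

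CASP14 belongs to the terminal differentiation of stratified epithelium, and other genes of that programme were also lower. Of 19 tested genes of the cornified envelope and its proteases, 10 fell and none rose, with a median log2 fold change of -0.64. IVL, involucrin, had 36.8, 32.8 and 36.9 CPM in the controls and 23.1, 21.6 and 19.6 CPM with Ocoxin (-0.73, SE 0.074, edgeR adjusted p = 4.12e-05). KLK5 and KLK7, proteases that shed the outer skin layer, fell from 159 ± 6.73 to 98.5 ± 2.79 and from 21.7 ± 4.03 to 8.84 ± 0.97 CPM (mean ± SD, log2 fold changes -0.69 and -1.30). S100A9, a calcium-binding alarmin, had 146, 136 and 155 CPM in the controls and 84.7, 75.7 and 69.6 CPM with Ocoxin, and its partner S100A8 fell from 7.27 ± 0.512 to 3.18 ± 0.941 CPM. SCEL, KLK8, SBSN, CNFN and CSTB fell as well (-0.86, -0.83, -0.64, -0.50 and -0.26), while the large scaffold proteins PPL, EVPL and FLG did not pass (-0.06, 0.15 and 0.26). In BxPC-3, 5 genes of this list fell and 2 rose.

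Among keratins, the intermediate filaments of epithelium, those that were altered fell. All 6 simple epithelial keratins fell (median -0.39): KRT80 had 40.9, 41.8 and 52.8 CPM in the controls and 21.4, 20.5 and 24.6 CPM with Ocoxin, KRT8 had 759, 823 and 789 CPM in the controls and 541, 565 and 519 CPM with Ocoxin, and KRT23, KRT19, KRT18 and KRT7 changed by -0.47, -0.32, -0.24 and -0.23. The epithelial marker EPCAM fell too (-0.25), CDH1, E-cadherin, had -0.09 (adjusted p = 0.0835), and 3 luminal markers summed to 189.6 to 202.7 CPM in controls and 204.7 to 216.8 CPM with Ocoxin; their part in the keratin and cornified results was not tested. The response of all 6 keratins differed from SW620, where none passed, and that of 3 differed from BxPC-3. Of 9 basal keratins, 3 fell and none rose (median -0.12, 33.3% altered against 21% of all genes tested), and both types were not compared by a test: KRT17 from 262 ± 30.1 to 164 ± 20.4 CPM, KRT6A from 18.5 ± 2.18 to 12.2 ± 0.933 CPM and KRT14 from 101 ± 3.77 to 77.7 ± 7.98 CPM. KRT5, the defining keratin of basal cells, had 1661, 1670 and 1468 CPM in the controls and 1582, 1559 and 1409 CPM with Ocoxin (-0.08, adjusted p = 0.406), and its groups overlapped. KRT6A and KRT17 have near-identical copies or pseudogenes, and reads that fit several places were counted, so their values are uncertain. DSP, desmoplakin of the desmosome, rose (889 ± 63.3 to 1152 ± 33.3 CPM, log2 fold change 0.37), as did DSC3 (0.28) and PKP4 (0.20), while PKP3 and DSG2 fell (-0.30 and -0.13), making 3 up and 2 down of 11 desmosome genes, with none down without control replicate 1 and 1 down without control replicate 2 or Ocoxin replicate 1 or 2. Of 19 tight junction genes, 5 fell, led by CLDN23, CLDN3 and CLDN4 (-0.69, -0.54 and -0.44), and CGN rose (0.14). The share altered in that list was 31.6%, against 21% of all genes tested.

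Inflammatory mediators driven by NF-kB were lower. Of 24 tested genes, 11 fell and 1 rose, with a median of -0.38. CXCL8, the neutrophil attractant interleukin-8, had 7.69, 8.03 and 5.53 CPM in the controls and 1.61, 1.43 and 1.27 CPM with Ocoxin (-2.30, SE 0.18, edgeR adjusted p = 6.3e-06), and CXCL1, a related chemokine, had 6.13, 5.59 and 4.19 CPM in the controls and 1.34, 1.51 and 1.29 CPM with Ocoxin (-1.94, SE 0.18, edgeR adjusted p = 2.47e-05). Every control library was above every Ocoxin library in both, at low levels of expression. The cytokine LIF had 16.6, 16 and 13 CPM in the controls and 7.32, 7.8 and 6.52 CPM with Ocoxin (-1.08), and the adhesion molecule ICAM1 fell from 15.3 ± 1.32 to 8.56 ± 0.52 CPM (-0.84). SAA1 and SAA2, acute phase proteins encoded by near-identical genes, fell (-0.83 and -1.62), as did CCL2 at about 1 CPM (-1.32). The feedback inhibitors NFKBIA and TNFAIP3, which are themselves targets, fell by 0.42 and 0.58 on the log2 scale, RELB and LCN2 by 0.30 and 0.26, and CSF1 rose (0.37). In SW620 the list went the other way, with 9 up and none down and a median of 0.40, and 15 of the 24 differed. CXCL8 rose there by 0.97 and CXCL1 by 0.67 (adjusted p = 7.37e-07 and 1.73e-05). Of 40 interferon-stimulated genes, 2 rose (STAT2 and SAMD9) and 4 fell (ISG20, IFI35, IFITM2 and IRF1), and of 17 antigen presentation genes 1 rose (NLRC5) and 1 fell (PSMB10). The shares altered in these lists, 15% and 11.8%, were below the 21% of all genes tested. Without Ocoxin replicate 3, 7 interferon-stimulated and 3 antigen presentation genes fell. Of 10 genes of the glucocorticoid receptor and its targets, 4 fell (ANGPTL4, CEBPD, DUSP1 and SGK1) and TSC22D3 rose by 0.13; without control replicate 1, 2 fell.

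Early response genes and ligands of the epidermal growth factor receptor followed in part. Of 29 genes of ERK output and EGFR ligands, 8 fell and 3 rose (median -0.21), and 5 fell without control replicate 1 or without Ocoxin replicate 2. JUN, a subunit of the AP-1 transcription factor, had 54.6, 52 and 59.9 CPM in the controls and 32.5, 30.4 and 39.4 CPM with Ocoxin (-0.70, SE 0.092, edgeR adjusted p = 0.000723), and FOS, JUNB and FOSL1 fell by 0.45, 0.43 and 0.69 on the log2 scale. The ligands AREG and EREG fell (-0.61 and -0.68), and the receptor EGFR itself rose, from 499.9 ± 36.6 to 676 ± 28.3 CPM (0.43, adjusted p = 0.000205). In BxPC-3, 12 of these genes rose and none fell, and 16 differed from HCC-70, against 4.93% of all genes.

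Genes of matrix, invasion and migration also fell. Of 21 mesenchymal and matrix genes, 9 fell and 1 rose (median -0.36). PLAUR, the urokinase receptor, had 34.4, 33.7 and 31.7 CPM in the controls and 16.9, 17.4 and 16.1 CPM with Ocoxin (-0.98, adjusted p = 1.43e-06), TGFBI, a secreted adhesion protein, had 513, 515 and 528 CPM in the controls and 342, 336 and 316 CPM with Ocoxin (-0.65), and VIM, vimentin, fell from 41.5 ± 4.71 to 22.3 ± 2.68 CPM (-0.90). LOXL2, TNC, PLAU, CDH3, MMP2 and MMP13 fell by 0.85, 0.48, 0.43, 0.36, 0.44 and 1.05 on the log2 scale, and SNAI2, a repressor of epithelial genes, rose (33.6 ± 6.75 to 52.5 ± 2.82 CPM, 0.64, adjusted p = 0.0232), a call that was lost without control replicate 2 or without any 1 of the Ocoxin replicates. Of 14 targets of YAP and TGF-beta, 6 fell and none rose (median -0.35): CCN1 from 41.6 ± 1.3 to 29.5 ± 2.69 CPM, CCN2, TGFB1, TGFB2, ID2 and ID3. Of 21 integrins and laminins, 8 fell, led by ITGA6 (-0.39) and ITGB6 (-0.34), and 4 rose (LAMA5, ITGA2, LAMC1 and LAMB2, at most 0.30); without control replicate 1 or Ocoxin replicate 1, 5 fell. FBN1, the microfibril protein fibrillin, was among the largest increases (4.57, 3.62 and 4.62 CPM in the controls and 9.55, 10.4 and 10.2 CPM with Ocoxin, 1.23).

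Zinc-responsive genes rose, led by metallothioneins. Of 6 metallothionein genes tested, 5 rose and none fell (median 0.70), against 9.65% of all genes that rose. MT1G, at chr16:56666731-56668065, had 8.88, 9.71 and 8.21 CPM in the controls and 36.3, 28.3 and 33.5 CPM with Ocoxin (1.87, SE 0.1, edgeR adjusted p = 5.19e-07), and MT1M had 0.338, 0.919 and 0.751 CPM in the controls and 3.69, 3.17 and 4.45 CPM with Ocoxin (2.49, SE 0.28, edgeR adjusted p = 0.000117). MT2A rose by less (128, 143 and 133 CPM in the controls and 168, 157 and 163 CPM with Ocoxin, 0.27), MT1E and MT1F changed by 0.90 and 0.50, and MT1X had 69.2, 79.3 and 72.2 CPM in the controls and 72.7, 69.7 and 67.9 CPM with Ocoxin (-0.07, adjusted p = 0.416). The groups of MT1X overlapped, while those of the other 5 did not. These genes are near-identical copies in 1 cluster on chromosome 16, and the division of reads among them is uncertain. MT1X rose in SW620 (1.10), and the difference from HCC-70 passed (adjusted p = 2.35e-07), as it did for MT1F (0.50 against 2.21 in SW620 and 1.69 in BxPC-3).

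Some zinc transporters changed as well. SLC30A1, which exports zinc from the cell and is a target of MTF1, had 73.8, 67.5 and 67.6 CPM in the controls and 101, 98.7 and 108 CPM with Ocoxin (0.56, SE 0.051, edgeR adjusted p = 2.19e-05), and SLC30A2, which loads zinc into vesicles and is known from the mammary gland, had 9.71, 10.0 and 9.5 CPM in the controls and 26.9, 24.3 and 23.1 CPM with Ocoxin (1.34, SE 0.08, edgeR adjusted p = 5.63e-07). The remaining 6 exporters tested did not pass, with log2 fold changes from -0.15 to 0.31, and the share altered among exporters was 25%, near that of all genes tested (21%). Of 13 genes in the list of importers and MTF1, 2 fell and 1 rose (23.1% altered, near the 21% of all genes tested). SLC39A10, an importer that zinc is known to repress, had 18.4, 18.4 and 20.7 CPM in the controls and 10.5, 11.3 and 11.1 CPM with Ocoxin (-0.81, SE 0.081, edgeR adjusted p = 3.77e-05), and it fell in SW620 and BxPC-3 too (-0.81 and -1.48). SLC39A1 fell from 385 ± 11.8 to 318 ± 5.68 CPM, SLC39A2 rose from 46.8 ± 3.95 to 60.2 ± 4.43 CPM, and MTF1 had 63.9, 60.4 and 63.3 CPM in the controls and 69.1, 66.9 and 69.8 CPM with Ocoxin (0.13, adjusted p = 0.0567).

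The core of the metal response element to which MTF1 binds was searched as TGCACNC and TGCGCNC on both strands of the same windows. MT2A, which rose, MT1X, which did not pass, and SLC30A1 are shown because they are the metallothioneins and the exporter whose windows are in the table, with the matches in capitals.
MT2A, chr16:56608334-56608583, plus strand: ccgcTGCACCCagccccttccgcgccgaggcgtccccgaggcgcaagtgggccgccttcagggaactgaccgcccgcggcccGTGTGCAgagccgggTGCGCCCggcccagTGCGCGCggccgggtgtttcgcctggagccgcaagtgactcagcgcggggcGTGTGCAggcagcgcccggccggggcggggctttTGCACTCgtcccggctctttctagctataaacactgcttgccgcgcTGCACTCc
MT1X, chr16:56682220-56682469, plus strand: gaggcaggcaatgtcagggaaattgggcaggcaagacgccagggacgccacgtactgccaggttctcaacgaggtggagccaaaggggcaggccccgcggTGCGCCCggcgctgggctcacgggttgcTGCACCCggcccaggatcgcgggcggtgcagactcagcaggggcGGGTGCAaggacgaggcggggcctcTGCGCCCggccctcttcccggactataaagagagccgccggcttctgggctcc
SLC30A1, chr1:211579162-211579411, minus strand: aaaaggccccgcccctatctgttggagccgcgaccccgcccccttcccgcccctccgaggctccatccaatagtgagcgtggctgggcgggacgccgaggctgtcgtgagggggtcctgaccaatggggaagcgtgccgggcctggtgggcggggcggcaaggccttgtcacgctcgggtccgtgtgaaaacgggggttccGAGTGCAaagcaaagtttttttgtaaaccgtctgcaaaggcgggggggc
MT2A holds 7 matches, MT1X 4 and SLC30A1 1. The letters TGCACNC are found in 12.8% of tested genes with a window and TGCGCNC in 31%, and the second can overlap GC-rich sequence of any kind. MT1X thus holds the letters and was not altered in HCC-70, and MT1E, MT1F, MT1G and MT1M have no window in the table.

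Targets of the AhR rose in part. Of 9 genes tested in a list that also holds AHR and its partner ARNT, 5 rose and none fell (median 0.14). CYP1A1, the monooxygenase most used as a readout of this receptor, at chr15:74719542-74725610, had 77.1, 70.0 and 72.7 CPM in the controls and 304, 254 and 332 CPM with Ocoxin (2.02, SE 0.1, edgeR adjusted p = 4.05e-05). CYP1B1, its relative, had 204, 184 and 161 CPM in the controls and 386, 354 and 369 CPM with Ocoxin (1.02, SE 0.081, edgeR adjusted p = 0.000178), and ALDH3A1, an aldehyde dehydrogenase, had 1.58, 2.21 and 2.04 CPM in the controls and 3.5, 3.15 and 2.77 CPM with Ocoxin (0.69, SE 0.18, edgeR adjusted p = 0.0177). The lowest Ocoxin library was above the highest control in all 3 genes, with the widest gap for CYP1A1. AHR and NQO1 rose by 0.14 and 0.11, and AHRR and TIPARP, which encode repressors of the receptor, had 0.00 and -0.05. Fewer members rose when 1 library was left out (2 without Ocoxin replicate 1, 3 without control replicate 1, control replicate 2 or Ocoxin replicate 2). CYP1A1 had 1.18 in SW620 and -0.50 in BxPC-3 (adjusted p of the difference from HCC-70 = 0.0324 and 0.00049).

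**Figure D3:**
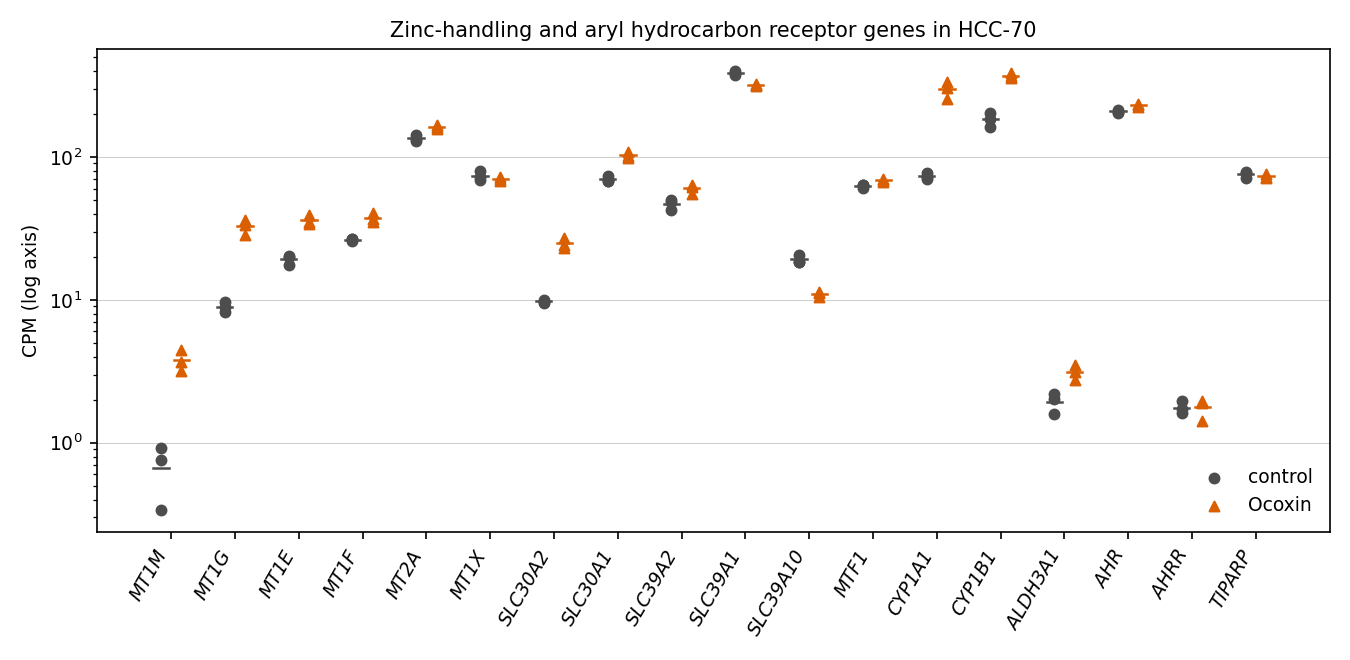
CPM (log axis) of metallothioneins, zinc transporters, MTF1 and AhR genes in the 3 control (grey circles) and 3 Ocoxin libraries (orange triangles) of HCC-70, with lines at the means. MT1G, SLC30A2 and CYP1A1 are higher in every Ocoxin library, SLC39A10 is lower, and the groups of MT1X, AHRR and TIPARP overlap.

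NRF2, the transcription factor of the response to oxidants and electrophiles, raises genes for glutathione, thioredoxin and NADPH. Of 31 genes tested in the list of its targets, NRF2 and KEAP1, 13 rose and 2 fell (median 0.11), and 8 rose without control replicate 1. The aldo-keto reductases AKR1C2 and AKR1C3 had 51.7, 47.9 and 44.5 CPM in the controls and 80.8, 70.8 and 70.7 CPM with Ocoxin and 191, 188 and 185 CPM in the controls and 266, 254 and 295 CPM with Ocoxin (log2 fold changes 0.63 and 0.53), and AKR1B10 rose from 13.2 ± 1.87 to 24.3 ± 5.95 CPM (0.88). EPHX1, epoxide hydrolase, rose from 444 ± 29.1 to 601 ± 6.72 CPM (0.44). TKT, an enzyme of the pentose phosphate pathway, and ME1, which makes NADPH, rose by 0.24 and 0.26, and PRDX1 and TXN fell by 0.17 each. The AKR1C genes are close copies of each other, so their separate values are uncertain. Of 23 genes of ferroptosis and iron handling, 2 rose (SLC7A11 and HMOX1) and 2 fell, TFRC, the transferrin receptor (-0.21), and PTGS2 (-0.56). With 17.4% altered, this list lay below the 21% of all genes tested.

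The integrated stress response, in which ATF4 raises amino acid supply genes, moved by small amounts. Of 20 factors and effectors, 8 rose and 2 fell (median 0.08). GDF15, a secreted stress cytokine, had 1.71, 1.21 and 0.966 CPM in the controls and 2.48, 2.69 and 4.37 CPM with Ocoxin (1.29, SE 0.27, edgeR adjusted p = 0.00545), and DDIT3, the transcription factor CHOP, had 16.4, 16.5 and 15.5 CPM in the controls and 21.2, 20.5 and 24.4 CPM with Ocoxin (0.45, SE 0.08, edgeR adjusted p = 0.0019). STC2 rose by 0.32 and CEBPG by 0.18, while ATF3 and VLDLR fell by 0.25 and 0.30. ATF4 itself had 553, 580.2 and 559.7 CPM in the controls and 552, 552 and 534 CPM with Ocoxin (-0.05, adjusted p = 0.347). SLC7A11, the cystine importer, had 47.8, 44.2 and 42.2 CPM in the controls and 70.6, 67.8 and 79 CPM with Ocoxin (0.70, SE 0.065, edgeR adjusted p = 2.86e-05) and led 6 of 17 amino acid transporters that rose, with SLC43A1, SLC1A4, SLC7A5, SLC7A1 and SLC6A9 (0.43, 0.42, 0.34, 0.25 and 0.23), and SLC6A14 and SLC1A1 fell (-0.54 and -0.36). Of 17 enzymes of amino acid synthesis and one-carbon metabolism, 6 rose, led by ALDH1L2 (0.49), CTH (0.34) and SHMT2 (0.27), and 1 fell. Of 20 cytosolic aminoacyl-tRNA synthetases, which load amino acids onto tRNA, 5 rose (WARS1, IARS1, HARS1, SARS1 and AARS1, by at most 0.27) and 2 fell, among them RARS1 (-0.25). The median of the synthesis list was 0.09 in HCC-70, 0.01 in SW620 and 0.32 in BxPC-3, and 4 and 7 of its members differed from HCC-70.

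The share of genes that rose differed with gene length. In HCC-70 the log2 fold change rose with merged exonic length (Spearman's rho 0.159 across the genes tested, which are not independent replicates) and fell with GC content (rho -0.081). With tested genes divided by length into 5 bins, 2.82% rose and 10.5% fell in the bin of 67 to 1825 bases, 4.58% rose and 15.1% fell in the next bin, and 21.2% rose and 7.67% fell in the bin of 7316 to 205012 bases, with medians of -0.05, -0.04 and 0.07. Counts of altered members in HCC-70 of lists made of short or of long genes are therefore also given after the trend with length and GC content was removed from each library. Counts of members that differed between lines are given without this step.

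**Figure D4:**
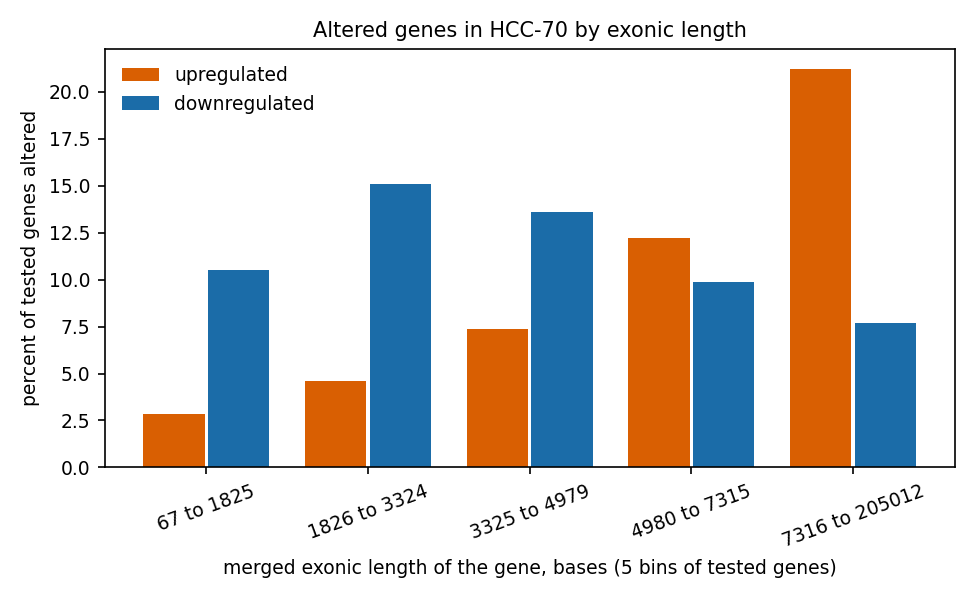
Percent of tested genes that rose (orange) and fell (blue) in HCC-70 in 5 bins of merged exonic length (bases). The share that rose goes from 2.82% in the bin of the shortest to 21.2% in the bin of the longest genes.

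Of 79 cytosolic ribosomal proteins, 36 fell and 1 rose (median -0.12), and 41 and 1 after the trend was removed. Among altered members RPL34, RPS28 and RPL27 fell most (-0.29, -0.27 and -0.27), with RPL27 at 182, 184 and 182 CPM in the controls and 149, 152 and 154 CPM with Ocoxin, and RPS9 had -0.50 without passing (adjusted p = 0.0825). RPL36A, at a low level, was the 1 that rose (0.81). These genes have many processed copies, and the count fell when a library was left out (18 without Ocoxin replicate 1, 20 without control replicate 2 or Ocoxin replicate 2). Of 76 mitochondrial ribosomal proteins, 20 fell and 1 rose (21 and 2 with the trend removed), and 13 fell without control replicate 1 and 8 without control replicate 2, without Ocoxin replicate 1 or without Ocoxin replicate 2. The share altered in the mitochondrial list was 27.6%, against 21% of all genes tested. In SW620 the median of the cytosolic list was 0.10, and 50 of its members differed from HCC-70. In BxPC-3 it was -0.14, and 1 differed. The trend was not removed for these medians and differences, and its part in them was not tested.

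Subunits of the respiratory chain, which makes ATP in mitochondria, fell by small amounts. Of 39 subunits of complexes II to V, 28 fell and none rose (median -0.20, 29 with the trend removed), and of 35 complex I subunits 14 fell (median -0.10, 15 with the trend removed, 9 without control replicate 2). COX7A2 had 70.7, 76.5 and 68.6 CPM in the controls and 48.5, 51 and 48 CPM with Ocoxin (-0.55, SE 0.053, edgeR adjusted p = 3.12e-05), NDUFA1 had 67.2, 67 and 71.1 CPM in the controls and 52.7, 53.2 and 54.4 CPM with Ocoxin (-0.36, SE 0.047, edgeR adjusted p = 0.000272), and COX6B1 fell by 0.33. The 2 groups did not overlap for either of the first 2 genes. Mitochondrially encoded subunits had 0 counts in every library, so only the nuclear ones were measured.

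Most proteasome subunits fell as well. Of 31 proteasome subunits, 23 fell and none rose (median -0.18, 24 with the trend removed), among them PSMB1 (140.3, 137 and 133 CPM in the controls and 106, 105 and 98.9 CPM with Ocoxin, -0.40). Of 16 heat shock proteins, 9 fell and 1 rose: HSP90AA1, a cytosolic chaperone, had 2094, 2051 and 1985 CPM in the controls and 1740, 1754 and 1621 CPM with Ocoxin (-0.26), HSPB8 fell most (-0.65), and HSPA9, a mitochondrial member, rose (0.17). HSPE1, also a mitochondrial member, fell, with log2 fold changes of -0.35 to -0.24 across the alternatives. Of 34 genes of the endoplasmic reticulum, 11 fell and 6 rose. Those that fell included the chaperones CALR (956 ± 34.9 to 739.6 ± 2.02 CPM, -0.37), HSP90B1 (-0.26) and PDIA4 (-0.27) and the secreted factor MANF (-0.53), and those that rose were ERN1, the stress sensor IRE1 (0.44), SEL1L (0.29), SYVN1, HYOU1, ATF6 and EDEM3, of which SEL1L, SYVN1 and EDEM3 serve the removal of misfolded proteins. Of 32 lysosomal genes, 11 fell and 1 rose, TPP1 (0.21). CTSB and CTSC, lysosomal proteases, fell from 182 ± 4.83 to 139 ± 1.27 and from 367 ± 5.23 to 289 ± 4.79 CPM, and 7 of the list fell without Ocoxin replicate 1.

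Among long genes, histone lysine methyltransferases rose. Of 28 tested, 15 rose and 1 fell (median 0.19), and 10 rose and 2 fell with the length and GC trend removed (median 0.14). KMT2D, which methylates histone H3 at enhancers, had 116, 88.1 and 103 CPM in the controls and 147, 135 and 141 CPM with Ocoxin (0.46, SE 0.091, edgeR adjusted p = 0.00992), and NSD1 had 139.8, 128 and 134 CPM in the controls and 176, 174 and 193 CPM with Ocoxin (0.44, SE 0.049, edgeR adjusted p = 8.97e-05). SETD1B, SETDB2, NSD3, KMT2B, EHMT2, KMT2A and SETDB1 rose by 0.44, 0.41, 0.30, 0.28, 0.26, 0.26 and 0.26, ASH1L, EHMT1, SETD1A, EZH1, SETD2 and DOT1L by 0.25 to 0.18, and SMYD2 fell by 0.17. In SW620, none of this list rose and 1 fell, and 7 differed from HCC-70. Of 30 kinesins, 6 rose and 1 fell, and 3 and 3 did with the trend removed; KIF21B rose most (43.4, 38.8 and 42.7 CPM in the controls and 68.8, 66.8 and 61.8 CPM with Ocoxin, 0.66), and 3 rose without control replicate 3 and 2 without control replicate 2, Ocoxin replicate 1 or Ocoxin replicate 2. Among the kinesins 23.3% were altered, near the 21% of all genes tested. Of 16 host genes of small nucleolar RNAs, 4 rose (GAS5, SNHG1, SNHG3 and SNHG7, by at most 0.31) and CYTOR fell (-0.49), with 2 up without control replicate 2, Ocoxin replicate 1 or Ocoxin replicate 2. The share altered among these host genes was 31.2%, against 21% of all genes tested.

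**Figure D5:**
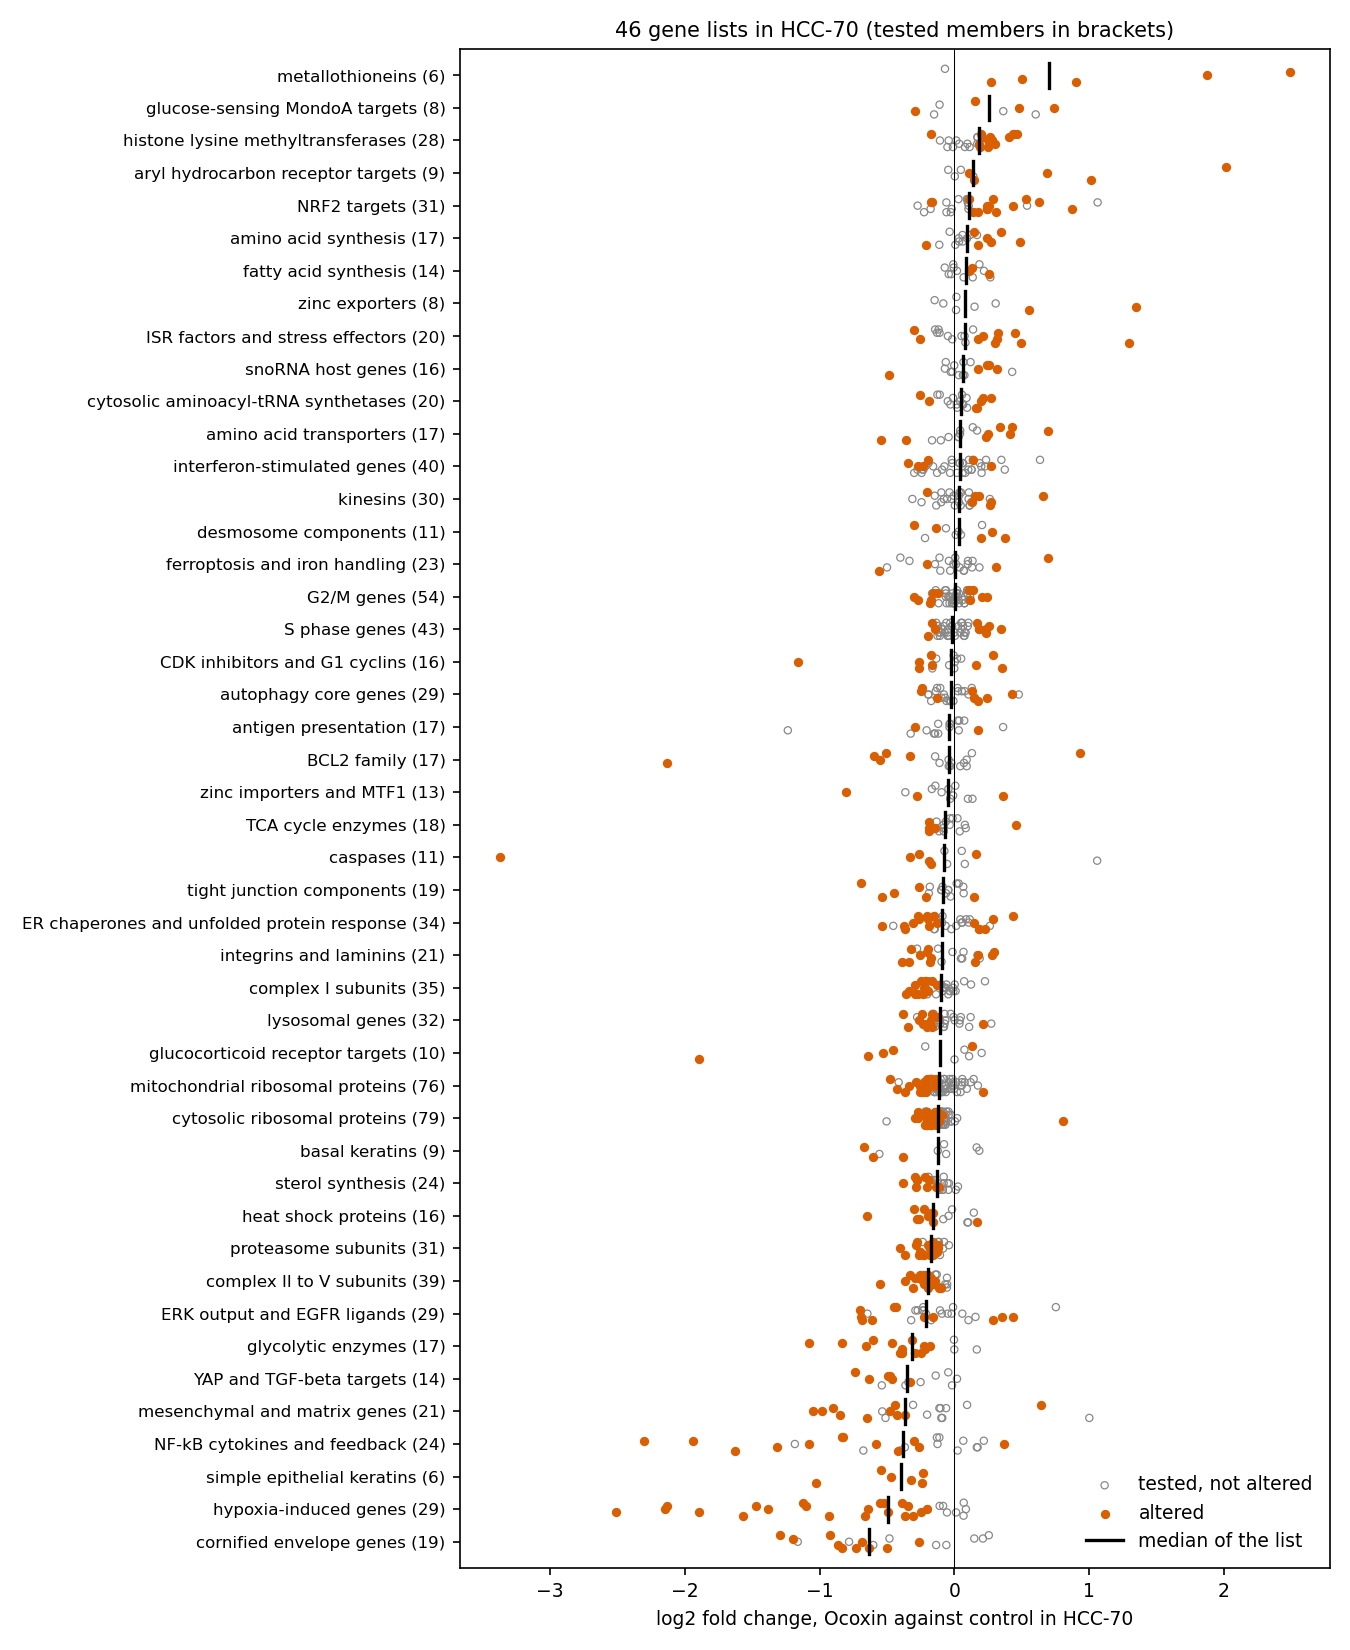
Log2 fold change of every tested member of 46 gene lists in HCC-70, sorted by the median of the list (black bar). Orange points are altered genes and open circles are tested genes that were not; metallothioneins have the highest median (0.70) and cornified envelope genes the lowest (-0.64).

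Genes of sterol synthesis that were altered fell. Of 24 genes of sterol synthesis, 10 fell and none rose (median -0.13), among them IDI1 (405 ± 14.2 to 332 ± 1.4 CPM, -0.29), NSDHL (-0.29) and STARD4 (-0.38). Of 14 genes of fatty acid synthesis, 3 rose and none fell (21.4% altered, near the 21% of all genes tested; ME1, ACSL3 and ACSL1, by at most 0.26), none of them without control replicate 1 or 2, and 1 without Ocoxin replicate 1 or 2. SREBF2 and SREBF1, their regulators, had 0.03 and -0.07 (adjusted p = 0.636 and 0.33). TXNIP, a glucose-sensing inhibitor of glucose uptake, had 140.0, 145 and 154 CPM in the controls and 235, 229 and 269 CPM with Ocoxin (0.74, SE 0.06, edgeR adjusted p = 2.59e-05). It is a target of the glucose sensor MondoA, as is ARRDC4, which rose too (0.48). With MLXIP, the gene of MondoA itself (0.15, not past the threshold in 7 of 15 alternatives), 3 of the 8 genes of this list rose, ARRDC3 fell (-0.29), and 1 rose without control replicate 2 or without Ocoxin replicate 1.

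The cell cycle lists did not move as a whole in HCC-70. The share altered was 23.3% for S phase genes and 20.4% for G2/M genes, near the 21% of all genes tested. Of 43 S phase genes, 7 rose and 3 fell (median -0.02), and of 54 G2/M genes, 5 rose and 6 fell (median 0.0010); with a library left out, 3 S phase genes rose without control replicate 1 or 2 and 4 without Ocoxin replicate 1 or 2, 1 fell without control replicate 3 or Ocoxin replicate 1, and 2 G2/M genes rose without control replicate 2 or 3 or Ocoxin replicate 1 or 2, 8 without Ocoxin replicate 3, and 3 fell without control replicate 1 or Ocoxin replicate 2. In SW620, at the same dilution, 10 and 22 of these genes fell and none rose, and 11 and 19 differed from HCC-70. Single regulators changed more. CDKN1A, the inhibitor p21, had 49.5, 49 and 45.8 CPM in the controls and 22.8, 20.4 and 21.3 CPM with Ocoxin (-1.16, SE 0.061, edgeR adjusted p = 2.99e-07), and every Ocoxin library was below every control. It rose in SW620 and in BxPC-3 (0.53 and 0.28, adjusted p of the difference from HCC-70 = 3.4e-09 and 8.15e-09). The inhibitors CDKN2B, CDKN2D and CDKN2A fell by 0.26, 0.26 and 0.18, and CCND1, cyclin D1, rose from 156 ± 6.81 to 199 ± 18.9 CPM (0.36), as did MYC (0.29) and CDK6 (0.16), making 3 up and 5 down of 16, with 3 down without control replicate 2 or without Ocoxin replicate 1.

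Of the altered BCL2 family genes and caspases, most fell. Of 17 genes of the BCL2 family, 5 fell and 1 rose (35.3% altered, against 21% of all genes tested). BCL2, the founding inhibitor of mitochondrial cell death, had 8.96, 8.08 and 7.19 CPM in the controls and 16.8, 14.8 and 14.6 CPM with Ocoxin (0.93, SE 0.1, edgeR adjusted p = 7.08e-05), and the pro-death members BOK, BIK and BID fell (-0.59, -0.50 and -0.33), beside BNIP3 and BNIP3L of the hypoxia list. Of 11 caspases, 5 fell and 1 rose (54.5% altered): those that fell included CASP14, CASP6, CASP10 and CASP1 (-3.37, -0.33, -0.19 and -0.17), and CASP2 rose (0.16); without control replicate 2 or Ocoxin replicate 1, 3 fell. RNA was taken from attached cells, so cells that had detached are not represented. Of 29 core autophagy genes, 5 rose, led by ATG2B (0.43), and 3 fell (GABARAPL1, GABARAPL2 and MAP1LC3B), and with a library left out 1 to 2 rose without any of the controls or Ocoxin replicate 1 or 2, and 1 fell without control replicate 2 or 3 or Ocoxin replicate 1 or 2. The share altered in the autophagy list was 27.6%, near the 21% of all genes tested.

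Other large changes fell outside the lists. CLGN, calmegin, a chaperone of the endoplasmic reticulum, had 4.62, 4.83 and 3.97 CPM in the controls and 14.5, 14.5 and 21.6 CPM with Ocoxin (1.91, SE 0.17, edgeR adjusted p = 6.67e-05). ZMYND12, TACR2 and ANXA8L1 rose at levels near 1 CPM (1.44, 1.16 and 1.15), of which ANXA8L1 has a close copy. H3C6, a histone gene, had 1.17, 1.52 and 1.18 CPM in the controls and 3.33, 3.25 and 3.44 CPM with Ocoxin (1.37). Among decreases, CD180, a receptor of the Toll-like family, had 7.61, 6.3 and 7.03 CPM in the controls and 2.42, 2.58 and 1.5 CPM with Ocoxin (-1.69), the serpin SERPINB7 had 2.02, 1.94 and 1.45 CPM in the controls and 0.538, 0.699 and 0.259 CPM with Ocoxin (-1.86), and LHFPL7 had 3.95, 3.67 and 2.58 CPM in the controls and 1.02, 0.834 and 1.03 CPM with Ocoxin (-1.82). The control and Ocoxin libraries of these genes did not overlap, which was a condition for naming them.

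The response of HCC-70 was set against the other lines as a whole. Of 15152 genes tested in both HCC-70 and SW620, 3347 were altered in HCC-70 and 395 in SW620, with 135 in common (4.03% and 34.2% of each). Of the 135, 46 moved in the same direction and 89 in opposite directions, 49 down in HCC-70 and up in SW620 and 40 the other way. The test of the difference called 2110 of 20163 genes (10.5%), 843 with the higher (4.18%) and 1267 with the lower change in HCC-70 (6.28%), so that 40% of the differences were higher; with the length and GC trend removed, 50.1% were higher. With BxPC-3, 517 altered genes were in common (14.9% of 3464 and 39.9% of 1295), 429 in the same and 88 in opposite directions, and the difference was called for 958 of 19444 genes (4.93%), 1.63% with the higher and 3.3% with the lower change in HCC-70. Leaving out SW620 control replicate 1 gave 1218 differences in place of 2110, and leaving out BxPC-3 Ocoxin replicate 2 gave 590 in place of 958. Doses, depth and cell line differ together between HCC-70 and BxPC-3 and cannot be told apart.

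Among genes with opposite directions, CXCL8 and CXCL1 differed most between HCC-70 and SW620, by -3.29 and -2.63 on the log2 scale (adjusted p = 6.4e-10 and 3.4e-09). LINC01559, a long noncoding RNA, had 17.9, 16 and 15.9 CPM in the controls and 5.86, 4.82 and 3.08 CPM with Ocoxin and rose in SW620 (-1.86 against 0.33). CTSS, a lysosomal protease, fell from 156 ± 6.78 to 123 ± 1.42 CPM in HCC-70 and rose in SW620 (-0.34 against 1.17), and RASGEF1A had -1.12 against 0.42. Between HCC-70 and BxPC-3, LIF (-1.08 against 0.90) and ARTN, a neurotrophic ligand (-1.02 against 0.93), differed most, and PTPRR, SLCO4A1 and PTAFR also fell in HCC-70 and rose in BxPC-3. VSNL1, a neuronal calcium sensor, went the other way, with 44.3, 47.2 and 40.7 CPM in the controls and 52, 52.2 and 51.1 CPM with Ocoxin in HCC-70 (0.23) and -1.64 in BxPC-3 (adjusted p of the difference = 8.68e-08).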

How the data were processed

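Counts per gene were deposited for 24 libraries of 4 cell lines. Per the file headers and the methods, the authors used fastp for trimming, STAR for alignment to hg38, picard against duplicates, and counted primary alignments over exons with featureCounts 2.0.3. The library kit keeps the strand but the count did not use it, so overlapping and antisense genes cannot be told apart, and fragments were mostly counted as 2. Mitochondrial genes have 0 counts. The deposited counts were used as they are.

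From these counts, the 6 HCC-70 libraries were filtered with filterByExpr, scaled with TMM and tested with edgeR 4.0.16 (R 4.3.3, limma 3.58.1; quasi-likelihood F-test, robust, two-sided), with Benjamini-Hochberg adjustment over 17352 genes; altered means an adjusted p under 0.05 with no minimum fold. Differences between cell lines were tested as the interaction in 12 libraries. With 3 against 3, an exact permutation test of 1 gene cannot go below p = 0.1. SE is the size of the log2 fold change divided by the root of F. The LNCaP table was not used here, since its reads were counted under other settings.

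The members and the 47 gene lists were chosen with earlier results of these data known. Named genes are the 12 protein-coding genes with the largest increase and the 12 with the largest decrease (altered, mean of at least 1 CPM, no overlap), altered members of each list (others were chosen after their values were seen), fixed regulators and markers, and up to 6 genes altered in opposite directions per pair of lines; the neighbours of TCF19 were named after their values were seen. List symbols were matched to gene names, and 1 of 1194 entries was not found. Promoter windows are the 250 bases before each start taken from RefSeq (GRCh38.p14), and 11607 of the 17352 tested genes had at least 1. Alternatives were DESeq2 1.42.0, its size factors, other filters and thresholds, protein-coding genes only, 1 fit of 3 lines, a replicate block, a spline trend with exonic length and GC content (5 degrees of freedom) removed, and each library left out. The procedure was tested on simulated data. Some genes and 1 of the lists are not reported here.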

Additional observations from a re-analysis of the deposited data

Results flagged for a closer look

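Responses that differed between cell lines were tested as an interaction with edgeR, adjusted over all genes tested, and no explanation was tested. Between HCC-70 and SW620, 2110 genes differed. Among those altered in opposite directions, the difference (HCC-70 minus SW620, log2) was -3.29 for CXCL8, -2.63 for CXCL1, -2.20 for LINC01559, -1.71 for CDKN1A, -1.55 for RASGEF1A and -1.51 for CTSS. Each of these 6 fell in HCC-70 and rose in SW620.

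Between HCC-70 and BxPC-3, 958 genes differed. The difference (HCC-70 minus BxPC-3, log2) was -1.99 for LIF, -1.95 for ARTN, -1.89 for PTPRR, -1.57 for SLCO4A1 and -1.56 for PTAFR, which fell in HCC-70 and rose in BxPC-3, and 1.87 for VSNL1, which rose in HCC-70 and fell in BxPC-3. BxPC-3 received a less diluted dose, and dose and cell line cannot be told apart.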

How the results depend on the processing

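The number of genes altered in HCC-70 (3644) was 3453 with DESeq2, 3663 with its size factors, 4220 without a filter, 3688 with at least 10 counts in every library, 3784 with the length and GC trend removed, 3385 among protein-coding genes and 2719 in 1 fit of 3 lines. It was 1771 at an adjusted p under 0.01 and 176 with a change of at least 2-fold. Leaving out 1 library gave 2285 (without Ocoxin replicate 1) to 3864 (without Ocoxin replicate 3), with 2296 without control replicate 2 and 2333 without Ocoxin replicate 2.

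With the replicate number as a replicate block, 5878 genes were altered in HCC-70, of which 3638 were among the 3644, and 5720 with the trend removed as well. Deviations of same-numbered libraries correlated by 0.0726, 0.062 and 0.224, and control 1 correlated best with Ocoxin 2 (0.0847), so the numbers were not taken to pair the libraries. Control 3 had -0.119 and -0.137 with Ocoxin 1 and 2, and Ocoxin 3 had -0.137 and -0.103 with control 1 and 2. What replicate 3 of both groups shares is thus not modelled in the main fit. Some genes passed only with the block, such as KRT5 (edgeR adjusted p = 0.406 without and 0.0125 with it) and ERBB2 (0.0697 and 0.000285). The block gave 4111 differences from SW620 (4123 with the trend removed) and 2907 from BxPC-3 (2633 with the trend removed).

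The difference from SW620 (2110) was 901 at an adjusted p under 0.01 and 231 with at least 2-fold, and went from 1218 (without SW620 control replicate 1) to 2828 (without SW620 control replicate 3) with 1 library left out; it was 1336 without HCC-70 control replicate 2, 1301 without SW620 control replicate 2 and 1326 without SW620 Ocoxin replicate 2. The difference from BxPC-3 (958) was 1445 with DESeq2, 412 at an adjusted p under 0.01 and 153 with at least 2-fold, and went from 590 (without BxPC-3 Ocoxin replicate 2) to 1114 with 1 library left out. The cause of these changes was not tested. Of the values of named genes under all alternatives, 6213 kept direction and side of the threshold, 794 kept direction and missed it, 8 passed it newly and none turned; all 228 values of the 12 named differences held. Without at least 1 of the libraries, CGN, HSPA9, TPP1, TSC22D3, NLRC5, PSMB10, CASP2, SMYD2, KIFC3 and MRPL55 missed the threshold, as did members that fell among the ISR factors, amino acid transporters, NRF2 targets and ferroptosis genes. Other named calls were also unstable. Of 15 alternatives, RELB and MAP1LC3B missed the threshold in 9, SBSN in 8, and KLK8, LOX, NQO1, MMP2, PFKP and SLC1A1 in 7. HARS1 and MMP13 missed it in 5, CNFN in 4, and ANKRD37, ALDH3A1, CCL2 and ID2 in 3. Low counts limit what genes near 1 CPM can show.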

Other observations

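Selenoproteins, which carry selenium as selenocysteine, moved in both directions. This group and the next were chosen after their values were seen. Of 21 selenoprotein and related genes tested, 4 rose and 5 fell (median 0.02, against 0.0056 over all genes). Among all genes tested, 9.65% rose and 11.3% fell. SELENOW, a small thioredoxin-like selenoprotein, had 78.5, 84.5 and 83.2 CPM in the controls and 158, 162 and 158 CPM with Ocoxin (log2 fold change 0.96, SE 0.042, edgeR adjusted p = 4.53e-08), and it changed by 1.18 in SW620 and 1.07 in BxPC-3. GPX1 and GPX4 did not pass in HCC-70 (0.04 and -0.10, edgeR adjusted p = 0.824 and 0.513). GPX1 rose in SW620 and BxPC-3 (0.83 and 0.39). SELENON, TXNRD1 and SELENOH rose by 0.49, 0.28 and 0.23, and MSRB1, SELENOO, SEPHS2, SELENOF and SELENOK changed by -0.35, -0.34, -0.26, -0.24 and -0.22.

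Of 36 replication-dependent histone genes tested, 12 rose and none fell (median 0.24), against 9.65% of all genes tested that rose and 11.3% that fell. Their transcripts mostly lack a poly(A) tail, and the libraries were made from poly(A) RNA, so they count only a part of these transcripts. In SW620, 2 of 28 tested rose, and in BxPC-3 none of 20 was altered.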
